A study of Mus musculus with 121 samples.

Results

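The 10 genes described here are serotonin receptor genes of the mouse: Htr1a, Htr1b, Htr1f, Htr2a, Htr2c, Htr3a, Htr4, Htr5a, Htr6 and Htr7. They were chosen by name, a gene being taken where its symbol equals 1 of these 10 names, and they make up 10 of the 24412 genes in the deposited table. Each of the 10 names matched 1 gene, and all 10 passed the filter on low counts in each fit.

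The study asks what more GDNF, a growth factor for dopamine neurons, made from its own gene does to gene expression in the brain. Its mice carry a conditional allele of Gdnf, named cKU, that was built to raise the gene's expression after Cre recombinase has acted. Bulk RNA was sequenced from the prefrontal cortex (PFC), the striatum (STR) and the substantia nigra (SN) of wild-type littermates (WT, wt/wt), heterozygotes (HET, wt/cKU) and homozygotes (HOM, cKU/cKU). Cre came from 1 of 2 sources, each forming a model.

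In the Nestin-Cre model Cre is made in the precursor cells of the central nervous system, and these mice were 2 months old by their labels and untreated. In the AAV-Cre model every genotype, WT included, received a virus encoding Cre in the striatum of both sides at 3 to 5 months of age, and the brains were taken at 5 to 7 months. Model, age and injection therefore cannot be told apart. All mice were males of a mixed 129Ola/ICR/C57bl6 background. The table holds libraries of 43 mice, 22 in the AAV-Cre model and 21 in the Nestin-Cre model. AAV-Cre libraries of WT, HET and HOM numbered 7, 7 and 8 in PFC, 7, 7 and 7 in STR, and 7, 7 and 8 in SN. Nestin-Cre libraries of WT, HET and HOM numbered 8, 6 and 4 in PFC, 6, 7 and 6 in STR, and 6, 7 and 6 in SN. A library held 9869584 to 26750905 counts, with a median of 17885830.

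Serotonin reaches all 3 regions through the axons of the raphe nuclei and acts through receptors that differ in how they signal. Htr1 and Htr5 receptors couple to inhibitory G proteins, Htr2 receptors to Gq and phospholipase C, and Htr4, Htr6 and Htr7 receptors to stimulatory G proteins and adenylyl cyclase. Htr3 receptors are ion channels.

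Gdnf itself was the first gene examined, in STR, where its level was highest. The counted exons of Gdnf include the native 3′ untranslated region, which the paper's scheme replaces with a short one in mRNA of the recombined allele. In AAV-Cre STR it had a lowest, median and highest value of 5.34, 6.78 and 7.51 cpm (counts relative to library size, scaled by TMM) in WT, 6.36, 7.52 and 9.58 in HET, and 7.62, 8.61 and 9.96 in HOM. The 7 HOM libraries all lay above the 7 WT libraries, and HET overlapped both. HOM was higher than WT by 0.40 ± 0.09 (log2, SE), with an adjusted p of 0.504, and HET by 0.20 ± 0.09, with an adjusted p of 1.00, so neither passed over all genes. In Nestin-Cre STR the values were 3.96, 6.26 and 7.70 cpm in WT, 4.03, 5.57 and 9.39 in HET, and 5.64, 6.84 and 9.81 in HOM, and the 3 groups overlapped. The log2 differences from WT there were 0.28 ± 0.19 in HOM, with an adjusted p of 0.784 and 5 of 6 libraries above the mean of WT, and 0.07 ± 0.19 in HET, with an adjusted p of 0.850. Gdnf was below the filter in Nestin-Cre PFC and in SN. How far the replaced region lowers the Gdnf counts of HET and HOM was not tested. By qPCR the paper reports higher striatal Gdnf mRNA in HET and HOM of both models.

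Summed marker genes followed the region labels in all libraries. The 14 striatal projection neuron markers, all detected and led by Ppp1r1b, summed to at least 8032 cpm in STR libraries and at most 2672 cpm in PFC libraries. The 8 dopamine neuron markers, all detected and led by Slc6a3, summed to 1752 to 6025 cpm in SN and to at most 179.6 cpm elsewhere. The 9 cortical excitatory neuron markers, all detected and led by Slc17a7, summed to at least 1897 cpm in PFC and at most 620 cpm elsewhere. None of these markers was at 0 in all libraries. Mouse M4575 is labelled WT for its PFC library and HOM for its STR and SN libraries, so the fits were repeated without it, and no member's test moved across the threshold. In Nestin-Cre SN HOM, however, the log2 difference from WT without this mouse was −0.88 against −0.25 for Htr3a, −0.48 against −0.18 for Htr4 and −0.54 against −0.30 for Htr1f.

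Some libraries stood apart in the choroid plexus, the tissue of the ventricles that makes much Htr2c. The 12 choroid plexus markers, all detected and led by Ttr, had a median sum of 17.5 cpm in PFC, 120.98 cpm in STR and 56.3 cpm in SN. In 9 libraries the sum was more than 10 times the median of its region, a limit set after the data were seen. In STR these were 7 of 40 libraries: AAV-Cre WT M3585 (8466 cpm) and M3588 (5631 cpm), HET M3610 (7087 cpm) and M3750 (5362 cpm), HOM M3607 (5170 cpm) and M3690 (6732 cpm), and Nestin-Cre HET M4566 (19350 cpm). The PFC and SN libraries of AAV-Cre HET M3676 were the others, at 1327 and 21112 cpm. Differences between genotypes and between regions are given for all libraries, and for Htr2c without these 9 as well. In bulk samples, fewer cells of a type and less RNA per cell cannot be told apart.

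Genotype was compared with WT within each model and region in 12 comparisons, in which HET and HOM share their WT libraries. In AAV-Cre PFC, 0 of 10 members passed at an adjusted p under 0.1 in HET, beside 0% of all 14628 genes, and 0 of 10 in HOM, beside 0.0137%. AAV-Cre STR gave 0 of 10 in HET and in HOM, beside 0% and 0% of 14655 genes, and AAV-Cre SN gave 0 of 10 in HET and in HOM, beside 0% and 0% of 14813 genes. In Nestin-Cre PFC, 0 of 10 passed in HET, beside 0% of 14386 genes, and 0 of 10 in HOM, beside 0.25%. With 1 HOM library left out at a time, these shares ran from 0% to 0.376% in HET and from 0.00696% to 0.849% in HOM, and no member passed. Nestin-Cre STR gave 0 of 10 in HET and in HOM, beside 0% and 0% of 14494 genes, and Nestin-Cre SN gave 0 of 10 in HET and in HOM, beside 0% and 0% of 14873 genes.

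These counts of 0 come from the quasi-likelihood test of edgeR in fits of 1 model and region, whose lowest adjusted p for a member was 0.166 (Htr2a, AAV-Cre PFC HOM). With an unadjusted p under 0.05 the same test gave 2 members in AAV-Cre PFC HET (beside 12.3% of all genes), 2 in AAV-Cre PFC HOM (14.2%), 2 in Nestin-Cre PFC HET (9.72%), 4 in Nestin-Cre PFC HOM (10.1%), 4 in Nestin-Cre STR HET (17.3%), 1 in Nestin-Cre SN HOM (4.09%) and 0 in the other 6 comparisons (1.71% to 8.99%). That makes 15 of 120 member tests, or 12.5%, beside 8.3% of the tests of all genes. The likelihood ratio test of edgeR passed 1 member in AAV-Cre PFC HET (beside 1.70% of all genes), 1 in AAV-Cre PFC HOM (2.93%), 1 in Nestin-Cre PFC HET (2.88%), 3 in Nestin-Cre STR HET (8.57%) and 0 in the other 8 (0.382% to 2.23%). That test used a dispersion set by the trend over all genes and made no allowance for a gene's own spread. DESeq2 passed 1 in Nestin-Cre PFC HET (beside 0.723% of the genes it gave an adjusted p), 1 in Nestin-Cre STR HET (3.77%) and 0 in 9 others (0% to 1.60%). In AAV-Cre PFC HOM the filter of DESeq2 left an adjusted p for 2377 genes and for none of the 10 members, so no member could pass there. Without that filter DESeq2 passed 1 member in AAV-Cre PFC HOM (Htr2a, beside 0.513% of all genes) and 0 in the other 11 (0% to 1.74%). The median absolute log2 difference of the members was 0.13, and 8 of 120 were above 0.50.

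**Figure D1:**
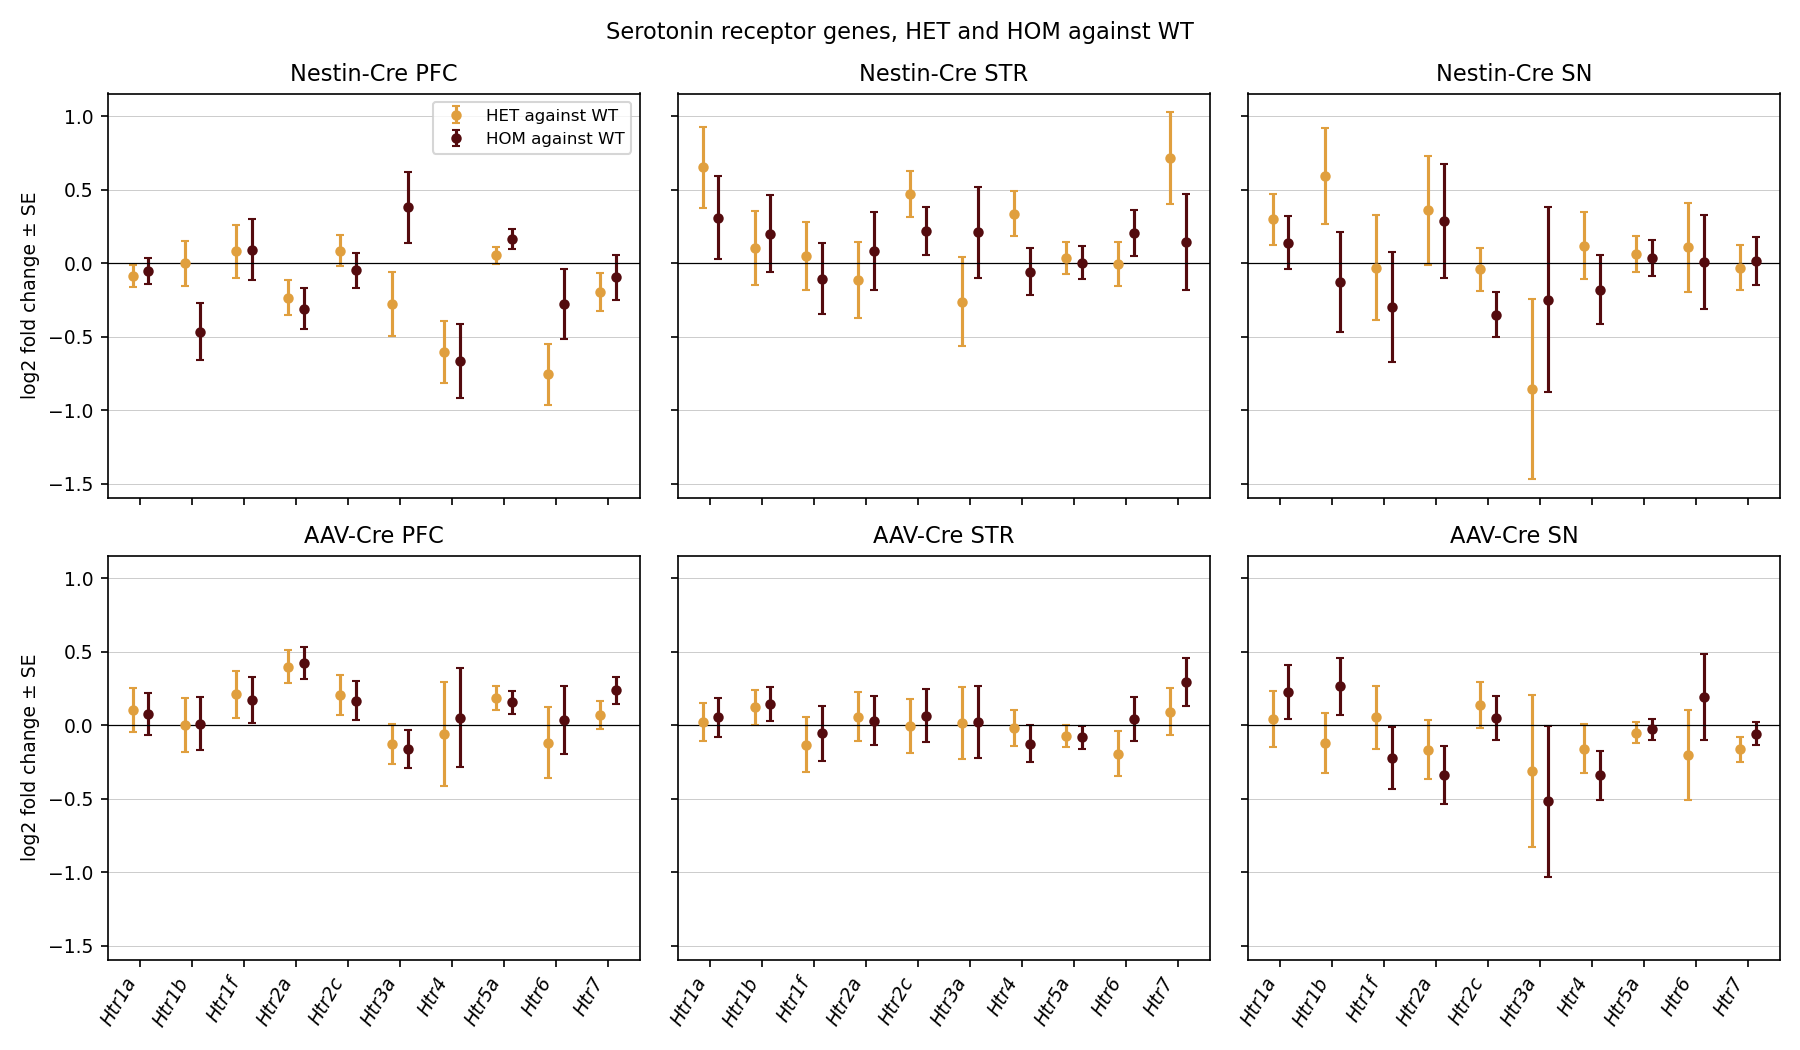
Log2 difference from WT (with SE) of the 10 serotonin receptor genes in HET and HOM mice, in 1 panel for each model and region. The largest differences stand in the Nestin-Cre panels. They run up to 0.72 for Htr7 and 0.65 for Htr1a in STR HET and down to −0.86 for Htr3a in SN HET. No difference shown passed at an adjusted p under 0.1 with the quasi-likelihood test in fits of 1 model and region. Fitted together with the model's other regions, Htr1a, Htr2c and Htr7 passed in Nestin-Cre STR HET, beside 7.02% of all genes.

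Regions were compared among WT libraries of each model. The regions share most of their mouse numbers, and these fits took the libraries as independent. In AAV-Cre, 10 of 10 members differed between SN and PFC (3 higher in SN, 7 lower), beside 74.1% of all 15043 genes (5665 higher, 5477 lower). Between SN and STR 8 of 10 did (4 higher, 4 lower), beside 75.6% (5978 higher, 5397 lower), and between STR and PFC 10 of 10 (4 higher in STR, 6 lower), beside 65.6% (5079 higher, 4784 lower). In Nestin-Cre, 10 of 10 differed between SN and PFC (3 higher, 7 lower), beside 78.8% of all 14926 genes (5616 higher, 6147 lower). Between SN and STR 9 of 10 did (4 higher, 5 lower), beside 76.2% (5644 higher, 5723 lower), and between STR and PFC 10 of 10 (4 higher, 6 lower), beside 68.1% (5103 higher, 5069 lower). When the mouse was a block of the fit, Htr3a newly passed in Nestin-Cre SN against STR and no other member's call changed. The shares of all genes were then 67.6% to 78.7%. With shares of all genes this high, such counts say little about the members as a group. The members' median log2 difference was −0.40 (SN against PFC), −0.30 (SN against STR) and −0.68 (STR against PFC) in AAV-Cre, and −0.95, −0.67 and −0.87 in Nestin-Cre. Members went both ways in each comparison. The medians of all genes lay between −0.03 and 0.03, near 0 by the TMM scaling, so a shift of the members as a group was not tested.

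Whether a genotype difference differed between regions was tested in 12 interactions, with libraries of the same mouse number taken as independent. For AAV-Cre HET, 0 of 10 members passed for SN against PFC, beside 0.0194% of all 15442 genes, 0 of 10 for SN against STR, beside 0.00648%, and 0 of 10 for STR against PFC, beside 0%. For AAV-Cre HOM the member counts were 0 of 10 beside 0.188%, 0 of 10 beside 0.00648% and 0 of 10 beside 0% in the same order. For Nestin-Cre HET they were 0 of 10 beside 0.013% of 15403 genes, 0 of 10 beside 0.0649% and 0 of 10 beside 0%, and for Nestin-Cre HOM 0 of 10 beside 0%, 0 of 10 beside 0% and 0 of 10 beside 0%. These are counts from the quasi-likelihood test, and DESeq2 was not run on interactions. With an unadjusted p under 0.05 the AAV-Cre interactions gave, in that order, 2, 0 and 1 members in HET (beside 14%, 3.14% and 4.82% of all genes) and 1, 1 and 1 in HOM (14.4%, 2.89% and 4.61%). The Nestin-Cre interactions gave 2, 2 and 4 in HET (4.42%, 11.6% and 5.3%) and 0, 1 and 0 in HOM (2.02%, 2.79% and 2.19%). The likelihood ratio test passed 1 member, Htr2a, for AAV-Cre HET (beside 3.59% of all genes) and for AAV-Cre HOM (2.38%) in SN against PFC. For Nestin-Cre HET it passed 2 in SN against STR (Htr2c and Htr7, beside 3.95%) and 2 in STR against PFC (Htr1a and Htr7, beside 2.02%). It passed 0 in the other 8 (0.207% to 1.83%). Over the alternatives these Htr7 differences ran from −0.79 to −0.42 (−0.73 reported) and from 0.61 to 0.98 (0.92 reported). With the mouse as a block the quasi-likelihood test passed Htr2a for AAV-Cre HOM in SN against PFC (adjusted p 0.0657), beside 4.48% of all genes.

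Whether a genotype difference differed between the models was tested in 6 interactions, as AAV-Cre minus Nestin-Cre. In PFC, 1 of 10 members passed for HET, beside 0.678% of all 14757 genes, and 1 of 10 for HOM, beside 3.54%. In both it was Htr2a. With 1 PFC library left out at a time, Htr2a passed in 16 of 40 fits for HET and in 39 of 40 for HOM. The shares of all genes ran from 0% to 2.46% and from 1.02% to 7.38%. Without the libraries high in choroid plexus markers Htr2a did not pass for HET. In STR, 0 of 10 passed for HET, beside 0.00673% of 14857 genes, and 0 of 10 for HOM, beside 0.0202%, and in SN 0 of 10 for HET, beside 0% of 15108 genes, and 0 of 10 for HOM, beside 0%. With an unadjusted p under 0.05 the quasi-likelihood test gave 1 member for STR HET (Htr1a, −0.63), beside 15.5% of all genes, and 0 for STR HOM, SN HET and SN HOM, beside 6.67%, 14% and 3.32%. The likelihood ratio test passed 1 for STR HET (Htr2c), beside 6.11% of all genes, and 0 for the other 3, beside 1.74%, 4.56% and 1.07%. Region differences of WT were compared between the models in the same way. There, 3 of 10 members passed for SN against PFC, beside 45% of all 15318 genes, 2 of 10 for SN against STR, beside 34%, and 3 of 10 for STR against PFC, beside 29.4%. In the same order the likelihood ratio test passed 5, 3 and 4 members, beside 37.3%, 25.5% and 21.4% of all genes. With the mouse as a block of the fit, 4, 1 and 4 passed, beside 46.4%, 37.2% and 30.6%. The likelihood ratio test newly passed Htr1a, Htr3a and Htr7 and lost Htr1f in SN against PFC, and newly passed Htr2c in SN against STR and Htr3a in STR against PFC. The block newly passed Htr7 in SN against PFC and Htr3a in STR against PFC and lost Htr1a in SN against STR.

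Levels of different genes were compared only in cpm per kb of counted exon. In Nestin-Cre WT PFC Htr2c (12.7 ± 2.24, SD, n = 8) and Htr2a (11.2 ± 1.83) came first and overlapped, and no library of Htr2a reached down to Htr1a (5.57 ± 0.56), the next. Htr2c (9.69 ± 2.31, n = 7) and Htr2a (7.64 ± 1.20) also led in AAV-Cre WT PFC. In STR the first places were those of Htr2c (22.5 ± 5.54, n = 6) and Htr1b (14.7 ± 4.84) in Nestin-Cre and of Htr1b (18.9 ± 3.04, n = 7) and Htr2c (16.5 ± 4.88) in AAV-Cre, with overlap in both models. Htr2c stood alone in SN, at 32.3 ± 8.71 in Nestin-Cre and 29.7 ± 4.90 in AAV-Cre, and Htr7 came next at 6.10 ± 1.52 and 7.48 ± 0.801, without overlap. Lowest were Htr4 in PFC (0.359 in Nestin-Cre, 0.436 in AAV-Cre) and Htr1f in STR (0.83 and 0.632) and in SN (0.356 and 0.521). Htr4 in PFC did not overlap Htr1f, the next gene up, in either model, while Htr1f in STR and SN overlapped the gene above it in both. Htr2c made up on average 26.6% of the summed level of the 10 genes in PFC, 43.5% in STR and 62.8% in SN of Nestin-Cre WT, and 23.2%, 31.8% and 55.7% in AAV-Cre WT. The sum itself was 47.6 ± 4.05, 51.7 ± 11.0 and 50.8 ± 9.73 cpm per kb in Nestin-Cre WT and 41.5 ± 2.91, 51.6 ± 4.88 and 53.2 ± 5.10 in AAV-Cre, in the order PFC, STR and SN.

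**Figure D2:**
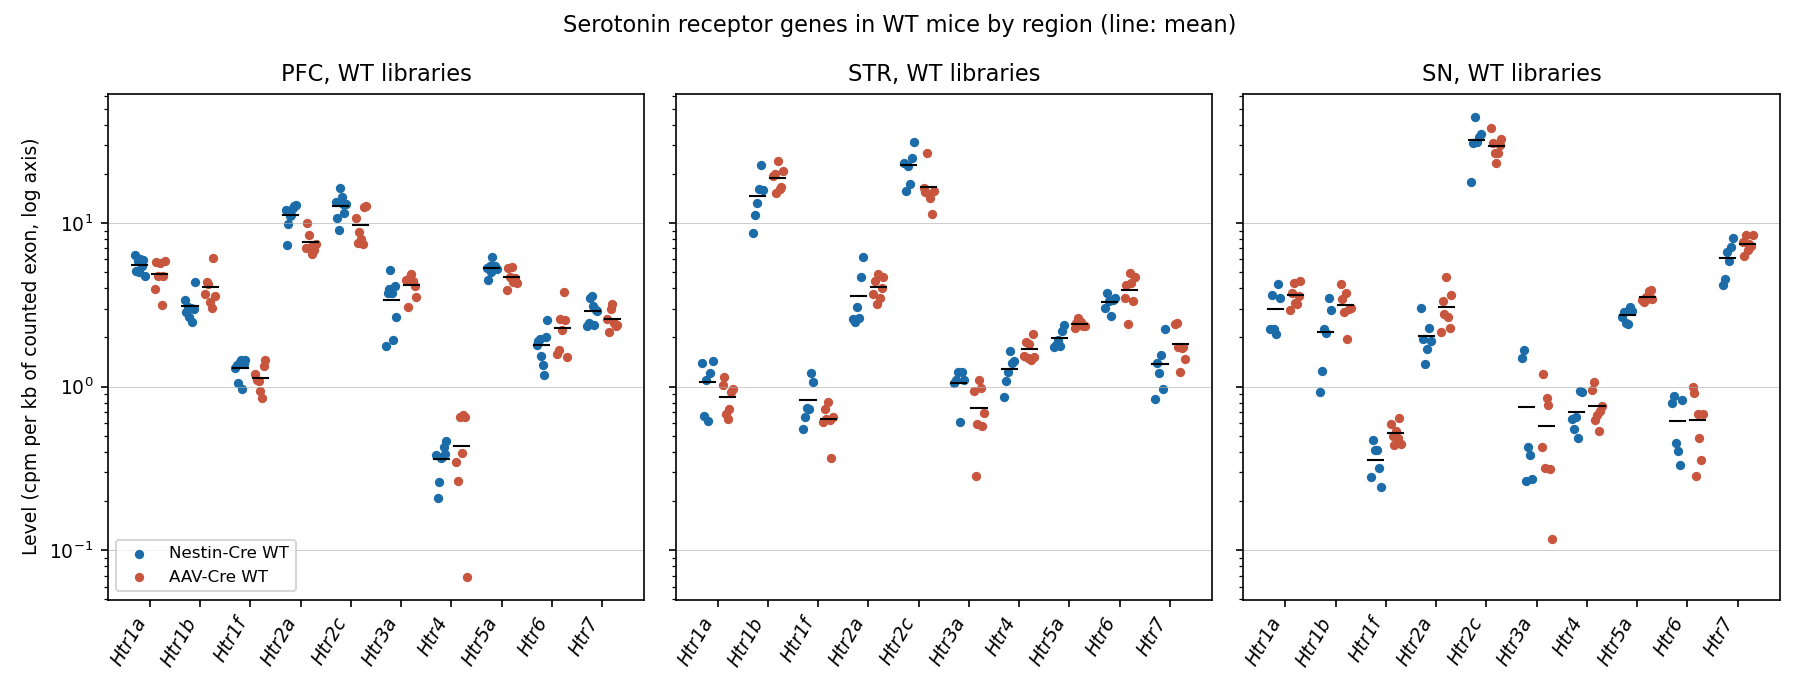
Levels of the 10 serotonin receptor genes in WT libraries, in cpm per kb of counted exon on a log axis, in 1 panel for each region, with points for libraries by model and a line at the mean. Htr2c is highest in SN, where its mean is 32.3 in Nestin-Cre and 29.7 in AAV-Cre.

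The exons counted cover different parts of the genes. They hold 24.6% of the exon bases that GENCODE gives to Htr1b, 50.9% for Htr2c, 53.0% for Htr2a, 58.2% for Htr6, 93.4% for Htr7, 94.9% for Htr4, 97.3% for Htr1f, 98.8% for Htr1a and 100% for Htr3a and Htr5a. Reads in the exons left out were not counted, so the order of the genes holds for the exons counted. Htr1b also overlaps exons of D430036J16Rik on the opposite strand, and since the strand used in counting is not stated, the source of reads there cannot be told apart. No member was at 0 in any library. The lowest counts were 3 for Htr3a, 5 for Htr4, 6 for Htr1f and 6 for Htr6, and Htr2c had the highest, 4915, with a median of 1574.

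Among the receptors coupled to inhibitory G proteins, Htr1a (Entrez 15550, mm10 chr13:105443693-105448133, plus strand) lowers the firing of raphe and cortical neurons. In Nestin-Cre WT its lowest, median and highest values were 21.2, 25.2 and 28.2 cpm in PFC, 2.74, 5.14 and 6.37 in STR, and 9.28, 12.8 and 18.8 in SN, with no overlap between regions. In AAV-Cre WT they were 14.0, 21.2 and 26 in PFC, 2.81, 4.10 and 5.07 in STR, and 13.0, 16.0 and 19.6 in SN, and SN overlapped PFC while STR lay below both. STR was lower than PFC by a log2 difference of −2.38 ± 0.19 in Nestin-Cre and −2.48 ± 0.15 in AAV-Cre, and SN was lower than PFC by −0.91 ± 0.18 and −0.41 ± 0.14. SN was higher than STR by 1.46 ± 0.20 in Nestin-Cre and 2.07 ± 0.15 in AAV-Cre.

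That last pair of Htr1a values differed between the models by 0.57 ± 0.25 (adjusted p 0.0935, SN above all STR libraries in 6 of 6 Nestin-Cre and 7 of 7 AAV-Cre WT libraries), with adjusted p from 0.0351 to 0.219 over the alternatives. Over the 41 fits that each left out 1 WT library it was 0.47 to 0.69, and it passed in 26 of them. It no longer passed without the AAV-Cre SN library of M3578, M3585, M3649 or M3677, the AAV-Cre STR library of M3585, M3587, M3588 or M3649, the Nestin-Cre SN library of M4329, M4529 or M4545, or the Nestin-Cre STR library of M4326, M4529, M4609 or M4612, where the difference was 0.47 to 0.58 and the adjusted p 0.103 to 0.176. Without the libraries high in choroid plexus markers it was 0.47, with an adjusted p of 0.219, and with the mouse as a block 0.47, with an adjusted p of 0.116, so it passed in neither. For SN against PFC, Htr1a did not pass with the quasi-likelihood test in the fit of all libraries, passed with the likelihood ratio test (adjusted p 0.0517), and passed in 11 of the 41, those without the AAV-Cre PFC library of M3578, M3587 or M3677, the AAV-Cre SN library of M3576 or M3588, the Nestin-Cre PFC library of M4612, the Nestin-Cre SN library of M4394, M4609 or M4612, or the Nestin-Cre STR library of M4394 or M4545, at 0.46 to 0.58 with an adjusted p of 0.0376 to 0.0997. The count of members that passed there was 3 to 5 over the 41 fits, and it was 5 without AAV-Cre PFC M3587, Nestin-Cre SN M4609 or Nestin-Cre SN M4612.

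Between genotypes, Htr1a was furthest from WT in Nestin-Cre STR HET, at 4.51, 6.97 and 13.5 cpm (lowest, median and highest) against 2.74, 5.14 and 6.37 in WT. M4564 had the highest value, 4 of 7 HET libraries lay above all WT libraries, and the groups overlapped. The log2 difference was 0.65 ± 0.27, with 6 of 7 libraries above the WT mean, and the adjusted p of 0.247 did not pass with the quasi-likelihood test (0.0681 to 0.331 over the alternatives). It passed with the likelihood ratio test (beside 8.57% of all genes) and in the fit of all regions (7.02%). Without the STR library of M4564 it was 0.45, and without libraries high in choroid plexus markers 0.72. M4564 also had the lowest sum of striatal projection neuron markers of its group, 8032 cpm against a group high of 14893, and the highest sum of the 7 thalamus markers, 98.1 cpm against a WT range of 47.3 to 71.1; their part in the result was not tested. In HOM the values were 3.27, 5.36 and 9.51 cpm, overlapping WT, with a difference of 0.31 ± 0.28. In the other 10 comparisons the log2 difference of Htr1a ran from −0.08 to 0.30.

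Htr1b (Entrez 15551, mm10 chr9:81631392-81632552, minus strand) sits on axon terminals, where it lowers transmitter release. Its lowest, median and highest values were 2.90, 3.50 and 5.10 cpm in Nestin-Cre WT PFC, 10.1, 17.1 and 26.3 in STR, and 1.08, 2.55 and 4.02 in SN. AAV-Cre WT had 3.53, 4.27 and 7.06 in PFC, 17.7, 22.5 and 27.7 in STR, and 2.28, 3.51 and 4.96 in SN. In both models STR lay above the other regions without overlap, and SN overlapped PFC. STR was higher than PFC by 2.23 ± 0.23 in Nestin-Cre and 2.22 ± 0.15 in AAV-Cre, and SN was lower than STR by −2.78 ± 0.26 and −2.56 ± 0.15. SN against PFC gave −0.55 ± 0.25 in Nestin-Cre (adjusted p 0.0505, 5 of 6 SN libraries below the PFC mean) and −0.34 ± 0.16 in AAV-Cre (adjusted p 0.0581, 6 of 7 below).

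In Nestin-Cre PFC HOM the 4 values of Htr1b were 1.96 (M4569), 2.11 (M4568), 2.60 (M4393) and 3.73 cpm (M4580), against 2.90, 3.50 and 5.10 in WT. The first 3 lay below all WT libraries, and M4580 lay within them. The difference of −0.46 ± 0.19 had an adjusted p of 0.410 (0.141 to 1.00 over the alternatives, 3 of 4 libraries below the WT mean) and did not pass. It was −0.70 without M4580 and −0.46 to −0.35 without any other 1 of the HOM libraries. The striatal projection neuron sums of these PFC HOM libraries were lower than in most WT libraries, and their part in this result was not tested. In Nestin-Cre SN HET Htr1b had 1.29, 3.88 and 6.57 cpm, the highest in M4566, overlapping WT. The difference there was 0.59 ± 0.32, and 0.41 without M4566, whose SN library had a striatal projection neuron sum of 2385 cpm against a group median of 501 cpm; its part in the result was not tested.

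Htr1f (Entrez 15557, mm10 chr16:64924729-65105784, minus strand) is a further inhibitory receptor, the target of drugs against migraine. The lowest, median and highest values of Htr1f were 2.44, 3.44 and 3.67 cpm in Nestin-Cre WT PFC, 1.39, 1.86 and 3.06 in STR, and 0.611, 0.912 and 1.19 in SN. The AAV-Cre WT values were 2.13, 2.76 and 3.66 in PFC, 0.922, 1.59 and 2.01 in STR, and 1.10, 1.25 and 1.63 in SN. SN lay below the other regions without overlap in Nestin-Cre, and in AAV-Cre it overlapped STR. SN was lower than PFC by −1.91 ± 0.21 in Nestin-Cre and −1.13 ± 0.16 in AAV-Cre, and STR by −0.65 ± 0.19 and −0.86 ± 0.16. SN against STR gave −1.26 ± 0.22 in Nestin-Cre and, in AAV-Cre, −0.27 ± 0.16, which did not pass (adjusted p 0.147, 6 of 7 SN libraries below the STR mean). The models differed by 0.95 ± 0.26 in SN against STR, which passed in 41 of 41 fits that each left out a WT library, and by 0.74 ± 0.25 in SN against PFC (adjusted p 0.0169, 6 of 6 and 7 of 7 SN libraries below all PFC libraries; 0.00905 to 0.13 over the alternatives), which also passed in 41 of 41 such fits and which the likelihood ratio test did not pass. Against WT of the same region and model, HET and HOM differed by −0.30 to 0.21. The lowest of these, in Nestin-Cre SN HOM, was −0.54 without M4575.

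Htr5a (Entrez 15563, mm10 chr5:27841947-27855086, plus strand) is also inhibitory and is made mostly in the brain. Htr5a had lowest, median and highest values of 24.9, 30.0 and 34.6 cpm in Nestin-Cre WT PFC, 9.80, 10.5 and 13.2 in STR, and 13.4, 15.5 and 17.1 in SN. AAV-Cre WT libraries had 21.9, 25.9 and 30.2 in PFC, 12.7, 13.3 and 14.6 in STR, and 18.4, 19.3 and 21.7 in SN. PFC lay highest and STR lowest, without overlap in either model. STR was lower than PFC by −1.43 ± 0.09 in Nestin-Cre and −0.95 ± 0.07 in AAV-Cre, and SN by −0.98 ± 0.09 and −0.39 ± 0.06. SN was higher than STR by 0.45 ± 0.09 and 0.56 ± 0.07. The models differed by 0.48 ± 0.10 in STR against PFC and by 0.55 ± 0.10 in SN against PFC, and both passed in 41 of 41 fits that each left out a WT library.

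In Nestin-Cre PFC HOM the Htr5a values were 31.7 (M4580), 32.0 (M4393), 33.7 (M4568) and 33.8 cpm (M4569), all above the WT mean of 29.7 and within the WT range. The difference was 0.16 ± 0.07 (adjusted p 0.397, 4 of 4 above the WT mean). In AAV-Cre PFC the values were 25.8, 28.6 and 35.7 cpm in HET and 24.8, 29.8 and 33.6 in HOM, against 21.9, 25.9 and 30.2 in WT. Both overlapped WT, with 2 of 7 HET and 3 of 8 HOM libraries above all WT libraries. The differences were 0.18 ± 0.08 in HET (adjusted p 0.364, with 6 of 7 libraries over the mean of WT) and 0.16 ± 0.08 in HOM (adjusted p 0.362, 6 of 8), and neither passed.

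Of the receptors coupled to Gq, Htr2a (Entrez 15558, mm10 chr14:74640840-74706859, plus strand) excites cortical pyramidal neurons. In Nestin-Cre WT its lowest, median and highest values were 22, 34.5 and 38.3 cpm in PFC, 7.42, 8.42 and 18.4 in STR, and 4.07, 5.75 and 9.01 in SN. For AAV-Cre WT they were 19.3, 21.3 and 29.6 in PFC, 9.51, 12.0 and 14.5 in STR, and 6.38, 8.28 and 13.9 in SN. PFC lay above the other regions without overlap in both models, and SN overlapped STR. STR was lower than PFC by −1.63 ± 0.20 in Nestin-Cre and −0.92 ± 0.14 in AAV-Cre, SN lower than PFC by −2.47 ± 0.21 and −1.30 ± 0.14, and SN lower than STR by −0.84 ± 0.22 and −0.39 ± 0.15. The models differed by 1.12 ± 0.26 in SN against PFC and by 0.71 ± 0.25 in STR against PFC, and both passed in 41 of 41 fits that each left out a WT library.

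In AAV-Cre PFC Htr2a had 24.0, 27.9 and 40.7 cpm in HET and 24.0, 30.3 and 37.9 in HOM, against 19.3, 21.3 and 29.6 in WT. All 7 HET and all 8 HOM libraries lay above the WT mean of 22.7, and 3 and 5 of them above all WT libraries, so both groups overlapped WT. The differences were 0.40 ± 0.11 in HET (adjusted p 0.340, between 0.00901 and 0.557 under alternatives) and 0.43 ± 0.11 in HOM (adjusted p 0.166, 0.00118 to 0.201). Neither passed with the quasi-likelihood test, and both passed with the likelihood ratio test. HOM also passed with DESeq2 when its filter was off (adjusted p 0.0581), and had no adjusted p with the filter on. In Nestin-Cre PFC the HET values were 21.1, 30.4 and 32.1 cpm, and the HOM values 23.8 (M4568), 25.0 (M4393), 26.4 (M4569) and 30.4 cpm (M4580), against 22, 34.5 and 38.3 in WT. Every HET and HOM library lay below the WT mean of 33.2, and 2 HET libraries lay below all WT libraries. The differences there were −0.23 ± 0.12 in HET (adjusted p 0.555, with 6 of 6 under the mean of WT) and −0.31 ± 0.14 in HOM (adjusted p 0.454, 0.17 to 1.00 over the alternatives, 4 of 4 below), and neither passed.

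The genotype differences of Htr2a in PFC differed between the models, in HOM by 0.74 ± 0.18 (adjusted p 0.0281, 8 of 8 AAV-Cre HOM libraries above and 4 of 4 Nestin-Cre HOM libraries below the WT mean of their model). Over the alternatives the adjusted p was 0.000117 to 0.113. Across the 40 fits that each left out 1 PFC library the log2 difference was 0.68 to 0.82, and it passed in 39 of them. It did not pass without the Nestin-Cre HOM library of M4568, where it was 0.68 with an adjusted p of 0.113. In HET the difference was 0.64 ± 0.17 (adjusted p 0.0987, 7 of 7 above and 6 of 6 below), with 0.000662 to 0.208 over the alternatives. Across the 40 such fits the HET difference was 0.56 to 0.71, and it passed in 16 of them. It did not pass without any 1 of 24 PFC libraries: AAV-Cre HET M3577, M3676, M3688 or M3750, AAV-Cre HOM M3687 or M3749, AAV-Cre WT M3576, M3585, M3587, M3588 or M3677, Nestin-Cre HET M4564, M4566, M4577, M4578 or M4579, Nestin-Cre HOM M4568 or M4569, or Nestin-Cre WT M4326, M4394, M4396, M4529, M4609 or M4612. The difference without these was 0.56 to 0.68 and the adjusted p 0.102 to 0.208. M3676 is the PFC library high in choroid plexus markers, and without it the values were 0.63 and 0.153. HET and HOM share the WT libraries of each model.

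**Figure D3:**
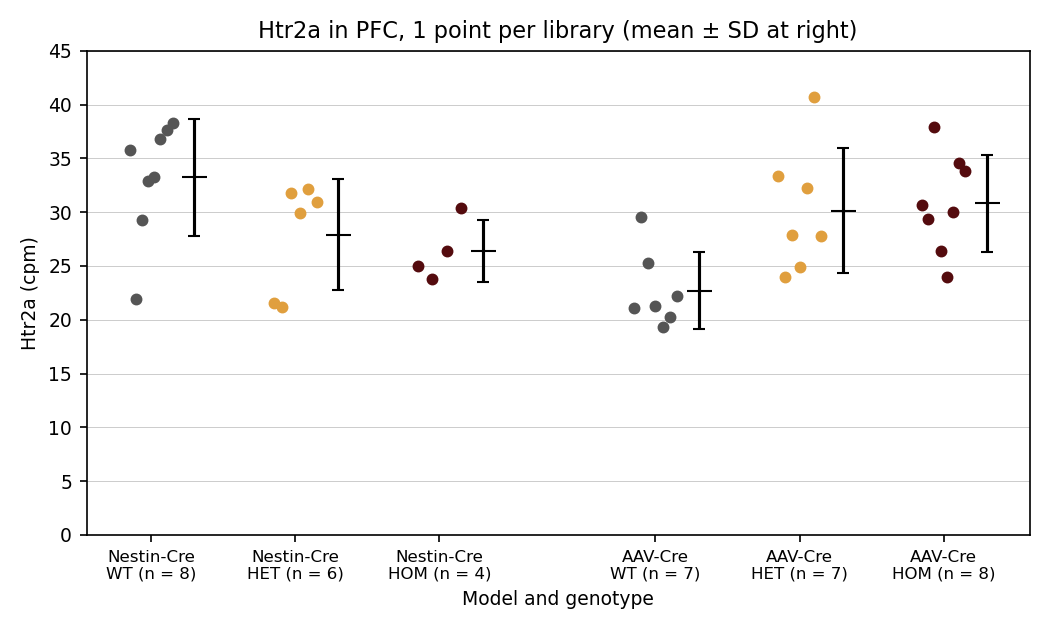
Htr2a in PFC in cpm, with 1 point for each library in the 6 groups of model and genotype and the mean with its SD. The AAV-Cre means are 22.7 in WT, 30.1 in HET and 30.8 in HOM, and the Nestin-Cre means 33.2, 27.9 and 26.4.

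The cortical excitatory neuron markers in these PFC libraries summed to 1897 to 2421 cpm in AAV-Cre WT, 1985 to 2584 in HET and 2016 to 2629 in HOM, and to 2254 to 2718, 2182 to 2629 and 2246 to 2583 in Nestin-Cre. The 9 cortical interneuron markers, all detected and led by Sst, summed to 850.3 to 1041 cpm in AAV-Cre WT and 950.01 to 1126 in Nestin-Cre WT. The striatal projection neuron markers summed to 1117 to 2672 cpm in AAV-Cre WT, 1362 to 2201 in HET and 1116 to 2596 in HOM, and to 849 to 1630, 629 to 926 and 584 to 992 in Nestin-Cre. The groups of each model overlapped in all 3 of these lists. Their part in the result was not tested. Between regions, the AAV-Cre genotype difference of Htr2a was lower in SN than in PFC by −0.58 in HET and −0.78 ± 0.24 in HOM (adjusted p 0.125 in HOM, 0.000674 to 0.142 over the alternatives; 8 of 8 HOM libraries above the WT mean in PFC and 7 of 8 below it in SN). Neither passed with the quasi-likelihood test, and both passed with the likelihood ratio test. With the mouse as a block of the fit, HOM passed (−0.77, adjusted p 0.0657), beside 4.48% of all genes, and HET did not. In SN the values were 6.38, 8.28 and 13.9 cpm in AAV-Cre WT, 4.64, 7.80 and 13.6 in HET, and 5.01, 7.29 and 9.39 in HOM, all overlapping.

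Htr2c (Entrez 15560, mm10 chrX:146962513-147197277, plus strand) is the other Gq receptor, found on neurons and at high level in choroid plexus. Its lowest, median and highest values were 43.1, 62.0 and 77.5 cpm in Nestin-Cre WT PFC, 75.1, 108 and 148 in STR, and 84.9, 154 and 213 in SN. In AAV-Cre WT they were 35.3, 42.1 and 60.6 in PFC, 54.4, 74.1 and 128 in STR, and 110.0, 142 and 182 in SN. SN lay above PFC without overlap in both models, and STR overlapped both. SN was higher than PFC by 1.32 ± 0.17 in Nestin-Cre and 1.62 ± 0.16 in AAV-Cre, STR higher than PFC by 0.82 ± 0.17 and 0.76 ± 0.16, and SN higher than STR by 0.50 ± 0.18 and 0.85 ± 0.16. Without the libraries high in choroid plexus markers, the AAV-Cre differences were 1.58 for SN against PFC, 0.61 for STR against PFC and 0.97 for SN against STR, and all 3 still passed. The highest AAV-Cre WT value in STR was then 78.4 cpm, below the lowest in SN, 110.0, so STR overlapped only PFC. No Nestin-Cre WT library was high in these markers.

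In the 6 AAV-Cre STR libraries high in choroid plexus markers, Htr2c was 128 cpm (WT M3585), 67.7 (WT M3588), 95.0 (HET M3610), 118 (HET M3750), 110.4 (HOM M3607) and 109 (HOM M3690). Without them the STR means of Htr2c were 70.7 cpm in WT, 67.3 in HET and 71.4 in HOM, where with them they were 78.5, 78.4 and 82.2. The SN library of HET M3676 had 264 cpm, and without it the HET mean was 137 cpm against 141 in WT and the log2 difference −0.05 against 0.14 with it. In PFC the library of the same mouse had 73.8 cpm, and the HET difference was 0.11 without it against 0.21 with it. Genotype differences of Htr2c in AAV-Cre did not pass with or without these libraries.

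In Nestin-Cre STR Htr2c had 104, 151 and 206 cpm in HET and 101, 123 and 143 in HOM, against 75.1, 108 and 148 in WT. HET M4566, high in choroid plexus markers, had the 206 cpm, 4 of 7 HET libraries lay above all WT libraries, and the groups overlapped. The difference in HET was 0.47 ± 0.16, with 6 of 7 libraries above the WT mean. It did not pass with the quasi-likelihood test (adjusted p 0.192, 0.00478 to 0.284 over the alternatives). It passed with the likelihood ratio test (beside 8.57% of all genes) and with DESeq2 with its filter (3.77%) but not without. It also passed when all regions of the model were fitted together (7.02%). It was 0.37 without the library of M4566 and 0.46 without the STR library of M4564. In HOM it was 0.22 ± 0.16 (adjusted p 0.784, 4 of 6 above). In Nestin-Cre SN HOM Htr2c had 110.0, 118 and 137 cpm against 84.9, 154 and 213 in WT, with the HOM libraries all inside the WT range. That difference was −0.35 ± 0.15 (adjusted p 0.892, 6 of 6 below the WT mean).

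**Figure D4:**
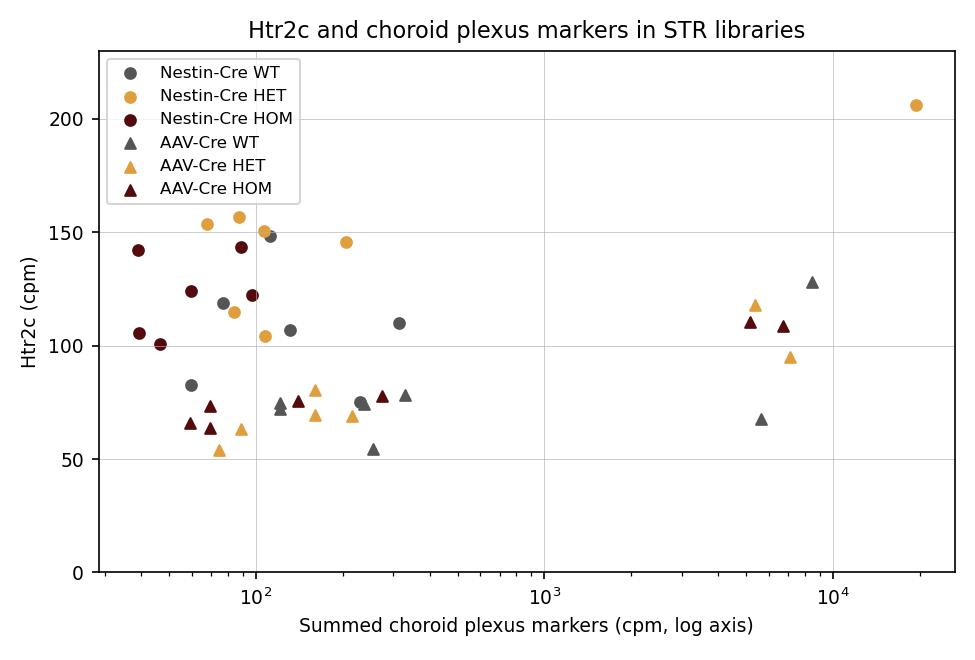
Htr2c in STR in cpm against the summed choroid plexus markers in cpm on a log axis, with 1 point for each library in 6 groups of model and genotype. The 7 libraries high in these markers stand to the right, with Htr2c between 67.7 cpm (AAV-Cre WT M3588) and 206 cpm (Nestin-Cre HET M4566).

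Htr3a (Entrez 15561, mm10 chr9:48899213-48911099, minus strand), a subunit of the serotonin-gated ion channel, is made in cortex by a class of interneurons. The lowest, median and highest values of Htr3a were 3.69, 7.76 and 10.8 cpm in Nestin-Cre WT PFC, 1.27, 2.30 and 2.56 in STR, and 0.551, 0.843 and 3.50 in SN. AAV-Cre WT had 6.38, 9.19 and 10.1 in PFC, 0.590, 1.43 and 2.30 in STR, and 0.244, 0.886 and 2.5 in SN. PFC lay above the other regions without overlap, and SN overlapped STR in both models. STR was lower than PFC by −1.68 ± 0.36 in Nestin-Cre and −2.50 ± 0.31 in AAV-Cre, and SN by −2.19 ± 0.38 and −2.84 ± 0.32. SN against STR did not pass in either model, at −0.51 ± 0.40 (adjusted p 0.266, 4 of 6 SN libraries below the STR mean) and −0.34 ± 0.34 (adjusted p 0.382, 4 of 7 below). In Nestin-Cre it was −0.88, with an adjusted p of 0.0477, when the mouse was a block of the fit (0.0477 to 0.295 over the alternatives), and it also passed with the likelihood ratio test.

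In Nestin-Cre PFC HOM the Htr3a values were 5.74 (M4580), 9.62 (M4568), 9.82 (M4569) and 11.2 cpm (M4393), with 3 of 4 above the WT mean of 7.05 and 1 above all WT libraries. The difference was 0.38 ± 0.24 (adjusted p 0.676), and 0.27 to 0.55 with 1 HOM library left out. In Nestin-Cre SN HET it was −0.86 ± 0.61, and −1.33 without the SN library of M4566, which had the group's highest value, 2.29 cpm, against 0.212, 0.673 and 2.29 in the group and 0.551, 0.843 and 3.50 in WT. The adjusted p was 0.557, with 6 of 7 libraries below the WT mean and overlap with WT.

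Of the receptors coupled to stimulatory G proteins, Htr4 (Entrez 15562) raises cyclic AMP in projection neurons. Htr4 had lowest, median and highest values of 0.976, 1.75 and 2.18 cpm in Nestin-Cre WT PFC, 4, 6.15 and 7.70 in STR, and 2.27, 3.00 and 4.36 in SN. The AAV-Cre WT values were 0.321, 1.82 and 3.14 in PFC, 6.82, 7.16 and 9.73 in STR, and 2.48, 3.31 and 4.95 in SN. STR lay above PFC without overlap in both models, while SN overlapped STR in Nestin-Cre and PFC in AAV-Cre. STR was higher than PFC by 1.83 ± 0.19 in Nestin-Cre and 1.96 ± 0.27 in AAV-Cre, SN higher than PFC by 0.95 ± 0.20 and 0.81 ± 0.27, and SN lower than STR by −0.88 ± 0.20 and −1.15 ± 0.25.

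In Nestin-Cre PFC Htr4 had 0.883, 1.02 and 1.43 cpm in HET, and 0.557 (M4393), 0.933 (M4580), 1.12 (M4568) and 1.45 cpm (M4569) in HOM, against 0.976, 1.75 and 2.18 in WT. All HET and HOM libraries lay below the WT mean of 1.67, and 2 of each lay below all WT libraries. The differences were −0.60 ± 0.21 in HET (adjusted p 0.337, with 6 of 6 under the mean of WT) and −0.67 ± 0.25 in HOM (adjusted p 0.353, 4 of 4 below), and neither passed. With 1 HOM library left out, the HOM difference was −0.88 to −0.49. In the same PFC libraries the striatal projection neuron sums were lower in HET and HOM than in most WT libraries, and their part in this result too was not tested. In Nestin-Cre STR HET Htr4 had 6.42, 7.02 and 8.67 cpm against 4, 6.15 and 7.70 in WT, overlapping it with 3 of 7 libraries above all of WT. That difference was 0.34 ± 0.15 (adjusted p 0.268, 7 of 7 above the WT mean).

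Htr6 (Entrez 15565, mm10 chr4:139061409-139074789, minus strand) is enriched in striatal neurons, where it raises cyclic AMP. Its lowest, median and highest values were 1.60, 2.51 and 3.50 cpm in Nestin-Cre WT PFC, 3.69, 4.59 and 5.13 in STR, and 0.453, 0.850 and 1.19 in SN. AAV-Cre WT libraries had 2.06, 3.01 and 5.16 in PFC, 3.31, 5.66 and 6.78 in STR, and 0.386, 0.926 and 1.36 in SN. SN lay lowest without overlap in both models, and STR lay above PFC without overlap in Nestin-Cre and with overlap in AAV-Cre. SN was lower than STR by −2.41 ± 0.23 in Nestin-Cre and −2.62 ± 0.25 in AAV-Cre, SN lower than PFC by −1.55 ± 0.22 and −1.85 ± 0.26, and STR higher than PFC by 0.87 ± 0.19 and 0.77 ± 0.23.

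In Nestin-Cre PFC Htr6 had 0.826, 1.43 and 2.09 cpm in HET, and 1.60 (M4569), 1.79 (M4580), 2.23 (M4393) and 2.37 cpm (M4568) in HOM, against 1.60, 2.51 and 3.50 in WT. All HET libraries lay below the WT mean of 2.44 and 4 of 6 below all WT libraries, and HOM overlapped both. The difference was −0.76 ± 0.21 in HET, which did not pass with the quasi-likelihood test (adjusted p 0.227, 6 of 6 below the WT mean, 0.0424 to 0.754 over the alternatives) and passed with the likelihood ratio test and with DESeq2 with its filter but not without. In HOM it was −0.28 ± 0.24 (adjusted p 0.790, 4 of 4 below), and −0.38 to −0.18 with 1 HOM library left out. The striatal projection neuron sums of these PFC libraries were 629 to 926 cpm in HET and 849 to 1630 in WT, and whether they bear on Htr6 was not tested.

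Htr7 (Entrez 15566, mm10 chr19:35958451-36057360, minus strand) is a stimulatory receptor with high expression in the thalamus. The lowest, median and highest values of Htr7 were 8.16, 10.1 and 12.5 cpm in Nestin-Cre WT PFC, 2.90, 4.54 and 7.82 in STR, and 14.5, 21.8 and 28.0 in SN. For AAV-Cre WT they were 7.48, 8.52 and 11.1 in PFC, 4.25, 6.04 and 8.44 in STR, and 21.7, 25.7 and 29.4 in SN. SN lay highest without overlap in both models, and STR lay below PFC, with overlap only in AAV-Cre. SN was higher than STR by 2.13 ± 0.20 in Nestin-Cre and 2.04 ± 0.13 in AAV-Cre, and higher than PFC by 1.05 ± 0.18 and 1.53 ± 0.12. STR was lower than PFC by −1.09 ± 0.19 in Nestin-Cre and −0.51 ± 0.13 in AAV-Cre.

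The models differed in this last Htr7 value by 0.57 ± 0.24 (adjusted p 0.0788, 6 of 6 Nestin-Cre and 7 of 7 AAV-Cre STR libraries below the PFC mean), with adjusted p from 0.0114 to 0.164 over the alternatives, and the difference passed in 31 of 41 fits that each left out a WT library. It did not pass without the AAV-Cre PFC library of M3578, M3649 or M3677, the AAV-Cre STR library of M3576 or M3578, the Nestin-Cre PFC library of M4394 or M4396, or the Nestin-Cre STR library of M4326, M4529 or M4609, where it was 0.47 to 0.56 with an adjusted p of 0.102 to 0.164. Without the libraries high in choroid plexus markers it was 0.59, with an adjusted p of 0.101. For SN against PFC, Htr7 did not pass with the quasi-likelihood test in the fit of all libraries, passed with the likelihood ratio test (adjusted p 0.0816) and with the mouse as a block (0.0503), and passed in 6 of the 41, those without AAV-Cre PFC M3587, AAV-Cre SN M3578, Nestin-Cre PFC M4326, Nestin-Cre SN M4609 or M4612, or Nestin-Cre STR M4612, at 0.44 to 0.54 with an adjusted p of 0.0563 to 0.0958.

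In AAV-Cre PFC HOM Htr7 had 8.75, 10.8 and 11.5 cpm against 7.48, 8.52 and 11.1 in WT, overlapping it with 3 of 8 libraries above all of WT. The difference was 0.24 ± 0.09 (adjusted p 0.264, 7 of 8 above the WT mean). In Nestin-Cre STR HET it had 4.45, 5.94 and 17.0 cpm, the highest in M4564, against 2.90, 4.54 and 7.82 in WT, and 2 of 7 libraries lay above all of WT. The difference was 0.72 ± 0.31 (adjusted p 0.259, 6 of 7 above the WT mean, 0.0371 to 0.382 over the alternatives), which did not pass with the quasi-likelihood test. It passed with the likelihood ratio test (beside 8.57% of all genes) and when all regions were fitted together (7.02%). It was 0.40 without the STR library of M4564, the library with the highest thalamus and the lowest striatal projection neuron sums of its group, and 0.77 without libraries high in choroid plexus markers; the part of these markers was not tested.

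Other marker lists, each with all its genes detected and none at 0 in all libraries, gave the following. The 4 serotonergic neuron markers, led by Tph2, summed to 2.49 to 133 cpm in SN libraries and at most 31.5 cpm elsewhere. The 4 olfactory bulb markers, led by Cdhr1, summed to 13.7 to 294 cpm in PFC. The 8 oligodendrocyte markers, led by Mbp, summed to 4098 to 7096 cpm in Nestin-Cre PFC WT, 3610.9 to 4218 in HET and 2931 to 4903 in HOM. The 8 immediate-early genes, led by Egr1, summed to 380.4 to 939 cpm in Nestin-Cre PFC WT, 639 to 1461 in HET and 319 to 1624 in HOM, and to 313 to 909, 383 to 924 and 282 to 907 in AAV-Cre. The 7 hippocampus markers (led by Fibcd1) summed to 21.2 to 70.6 cpm over all libraries, the 8 hypothalamus markers (Pmch) to 5.12 to 161, the 6 astrocyte markers (Slc1a2) to 2874 to 6063 and the 6 endothelial and vascular markers (Vtn) to 110.4 to 870.4. The 7 thalamus markers (Slc17a6) summed to 218 to 474 cpm in SN, 47.3 to 258 in STR and 69.9 to 88.4 in PFC. No member's result was tested against these sums.

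The genes that make, move and break down serotonin or carry the signal of its receptors were taken as 9 lists of 46 genes, of which 44 are in the table. In the genotype comparisons 0 of them passed with the quasi-likelihood test. With an unadjusted p under 0.05 it gave 9 and 5 of 38 in AAV-Cre PFC HET and HOM (beside 12.3% and 14.2% of all genes), 2 and 1 of 40 in AAV-Cre SN (4.69% and 7.49%) and 1 and 2 of 38 in AAV-Cre STR (1.71% and 4.58%). In Nestin-Cre it gave 1 and 5 of 37 in PFC (9.72% and 10.1%), 5 and 2 of 41 in SN (8.99% and 4.09%), and 11 and 2 of 39 in STR (17.3% and 4.62%). The other tools were not counted for these lists. Of the genotype differences compared between the models, Plcb4 (0.55 ± 0.14) and Grk3 (−0.33 ± 0.08) passed in PFC HOM, 2 of 38 beside 3.54% of all genes, and 0 passed in the other 5.

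Between SN and PFC, 16 of 41 pathway genes were higher and 20 lower in SN in AAV-Cre WT (5665 and 5477 of all 15043 genes), and 12 and 24 of 40 in Nestin-Cre WT (5616 and 6147 of 14926). The 6 tested genes of serotonin synthesis, transport and breakdown were all higher in SN, with median log2 differences of 5.60 in AAV-Cre and 6.01 in Nestin-Cre, most of all Slc18a2 (9.17 and 8.64), which dopamine neurons make as well. Tph2, which marks serotonin neurons, had 21.1 ± 21.9 cpm in AAV-Cre WT SN (3.25 to 52.9) and 32.4 ± 31.8 in Nestin-Cre WT SN (4.82 to 84.0), so the libraries of a group differed widely. The largest rise and fall of each further list in AAV-Cre were Gnai3 (0.27) and Gnao1 (−0.49), Gnas (0.31) and Gnal (−0.50), Gna14 (1.98) and Gna11 (−0.71), Adcy7 (1.48) and Adcy1 (−2.94), Plcb4 (1.62) and Plcb1 (−1.52), and Kcnj5 (4.31) and Kcnj3 (−1.36), with Grk2 (−0.74) for a list without a rise. In Nestin-Cre they were Htr1d (0.63) and Htr5b (−1.81), Gnai3 (0.53) and Gnaz (−1.11), Adcy7 (1.01) and Adcy1 (−3.47), Plcb4 (0.55) and Plcb1 (−2.19), and Kcnj5 (2.89) and Kcnj9 (−2.25), with Gnal (−0.95), Gna11 (−0.97) and Grk5 (−1.22) for lists without a rise.

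Between SN and STR, 25 of 41 pathway genes were higher and 13 lower in SN in AAV-Cre WT (all genes, 5978 and 5397), and 23 and 15 of 40 in Nestin-Cre WT (5644 and 5723). The 6 genes of serotonin synthesis, transport and breakdown were again all higher in SN, by a median of 5.29 in AAV-Cre and 5.14 in Nestin-Cre, with the largest rise for Slc18a2 (8.83) and Slc6a4 (9.15). Htr1d, a further inhibitory receptor, was lower in SN by −2.56 and −2.53. Its means were 3.50 cpm in PFC, 17.4 in STR and 2.95 in SN of AAV-Cre WT, and 2.38, 21.3 and 3.71 in Nestin-Cre WT. Gnas was higher (1.52 and 1.39) and Gnal lower (−1.92 and −2.71) in SN, Adcy8 higher (2.10 and 2.34) and Adcy5 lower (−3.20 and −3.93), Plcb4 higher (1.91 and 2.32) and Plcb1 lower (−2.06 and −2.70), and Kcnj6 higher (3.97 and 2.88). The remaining genes named by the rule were Htr5b (1.37 and 1.04), Gnai1 (0.75) with Gnao1 (−0.46), Gnaq (0.45) with Gna11 (−0.33) and Grk3 (1.09) with Grk5 (−0.93) in AAV-Cre, and Gnai3 (0.54) with Gnao1 (−1.08), Gna11 (−0.72), Kcnj9 (−0.51) and S100a10 (0.83) with Grk5 (−1.26) in Nestin-Cre.

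Between STR and PFC, 12 of 41 pathway genes were higher and 22 lower in STR in AAV-Cre WT (all genes, 5079 and 4784), and 7 and 22 of 40 in Nestin-Cre WT (5103 and 5069). Htr1d was higher in STR by 2.31 in AAV-Cre and 3.15 in Nestin-Cre and Htr5b lower by −1.13 and −2.85. Ddc was higher (1.08 and 0.93), Gnal higher (1.42 and 1.76) and Gnas lower (−1.21 and −1.32), Adcy5 higher (2.32 and 2.82) and Adcy1 lower (−1.53 and −1.92), and Gnaq lower (−0.48 and −0.82). Plcb1 was higher (0.54 and 0.51) and Plcb4 lower (−0.29 and −1.77), Kcnj5 higher (2.60 and 1.18) and Kcnj6 lower (−3.84 and −4.34), and Grk3 (−1.49 and −1.60) and Gnai1 (−0.58 and −0.73) lower. Gna14 (2.45), Gnai3 (0.18) and Grk5 (0.20) completed the rule in AAV-Cre. Comparing the models, 25 of 41 pathway genes had a more positive difference in AAV-Cre and 4 a more negative one for SN against PFC (3872 and 3026 of all 15318 genes), 16 and 3 for SN against STR (2949 and 2255), and 8 and 3 for STR against PFC (2334 and 2162). The most positive were Htr5b (2.02) and Kcnj6 (1.55) for SN against PFC, Kcnj6 (1.05) and Gnal (0.75) for SN against STR, and Htr5b (1.72) and Plcb4 (1.48) for STR against PFC. The most negative were Htr1d (−0.92) and S100a10 (−0.91), Ddc (−0.51) and Gnai3 (−0.48), and Htr1d (−0.84) and Adcy5 (−0.50), in the same order. Htr2b and Htr3b were near the limit of detection, with WT means of at most 0.139 cpm.

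Genes with levels like a member's were sought among 14355 genes, over the 18 group means, which share their regions, and over all libraries after the group means were removed. These correlations are descriptions, and genes are not independent replicates. Over the 18 means the most alike were Tmem200a (r 0.988), Satb1 (0.987) and Camk1 (0.983) for Htr1a, Rap1gap (0.989), Mbtps1 (0.988) and Cep70 (0.988) for Htr1b, Rtf1 (0.979), B3gat1 (0.977) and E2f3 (0.977) for Htr1f, and Wnt7b (0.992), Slitrk1 (0.989) and Rnf130 (0.988) for Htr5a. For Htr2a they were Pip4k2c (0.990), Fam189a1 (0.988) and Nmt1 (0.988), for Htr2c Rab9b (0.978), Zcchc12 (0.977) and Rps6ka6 (0.973), and for Htr3a Dtl (0.986), Tbr1 (0.986) and 9130024F11Rik (0.985). Htr4 was nearest to Pard3 (0.980), Six3os1 (0.980) and Six3 (0.977), Htr6 to Kptn (0.986), Stard10 (0.983) and Dsg1c (0.982), and Htr7 to Zfp423 (0.988), Akap12 (0.987) and Pxk (0.985).

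Within groups the coefficients were lower. Over all libraries they were 0.690 (Gng2), 0.652 (Glra2) and 0.626 (Ncald) for Htr1a, 0.671 (Tle4), 0.657 (Robo1) and 0.630 (Snx27) for Htr1b, 0.590 (Ncam2), 0.584 (Dmd) and 0.580 (Zfp81) for Htr1f, and 0.653 (Dnajc6), 0.650 (Frrs1l) and 0.638 (Sptan1) for Htr5a. Htr2a had 0.755 (Frrs1l), 0.753 (Pias1) and 0.746 (Rapgef5), Htr2c 0.655 (Cul4b), 0.610 (Ahcyl2) and 0.606 (Cab39l), and Htr3a 0.575 (Slc26a4), 0.564 (Rin1) and 0.563 (Lmo4). Htr4 had 0.502 (Ecel1), 0.475 (Htr1d) and 0.465 (Chat), Htr6 0.592 (Ier5l), 0.591 (C1qtnf4) and 0.583 (Prr7), and Htr7 0.698 (Plch1), 0.677 (Pnoc) and 0.651 (Arhgap36).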

How the data were processed

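RNA of 121 brain samples (PFC, STR and SN of 43 mice) was sequenced by the authors as single-end reads from a stranded library kit. The authors demultiplexed the reads with bcl2fastq 2.20.0.422, aligned them to mm10 with STAR 2.5.2b and counted them per Entrez gene with featureCounts 1.5.1. The deposited table holds raw counts of 24412 genes, and its length column, a unit of its own (other), is the authors' sum of exon bases per gene, used here for levels per kb. The strand setting of the counting is not stated. Symbols were matched to Entrez identifiers, and 6 genes have none. Totals of 9869584 to 26750905 counts set the precision.

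Groups were taken from the labels. Counts were fitted in edgeR 4.0.16 (R 4.3.3) with TMM scaling, trended dispersion and the quasi-likelihood test, on genes that reached 1 cpm in 3 or more libraries of the fit. The p-values were adjusted by Benjamini and Hochberg over all genes of the fit, and a gene passed at an adjusted p under 0.1. Fits of genotype held the libraries of 1 model and region, and fits of WT regions or of interactions the libraries they compare. Tables and plots used Python 3.11.15 with pandas 2.3.3, numpy 2.4.6, scipy 1.17.1 and matplotlib 3.10.9. All tests are two-sided. The calls were checked on simulated data in which chosen genes were changed. Of genes changed by a log2 of 0.5, the quasi-likelihood test recovered 73.1% in Nestin-Cre PFC HOM and 83.6% in AAV-Cre WT STR against PFC. In the model difference of PFC HOM it recovered 37.3%. Of genes changed by a log2 of 1 it recovered 98.5%, 100% and 98.5%. In the simulation every gene had the same fixed dispersion, and changed genes were drawn only from those above a minimum mean level. Many genes were changed at once, which makes it easier to pass after adjustment. These shares are therefore not the recovery of the members in the real data, least of all for those with few counts.

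Libraries with the same mouse number were taken to be from the same mouse, which the labels do not state. After group means were removed, libraries of a number had median correlations of 0.281 (PFC and STR, 21 mice), 0.197 (PFC and SN, 22) and 0.219 (STR and SN, 21) in AAV-Cre and 0.294 (16), 0.182 (16) and 0.255 (18) in Nestin-Cre, while libraries of different numbers had −0.0154 to −0.0017. All pairs of a number with PFC were above 0. Of the STR and SN pairs 18 of 21 and 16 of 18 were, with the lowest at −0.174 and −0.182. Among 354 pairs of libraries of a group, none was a copy of another, the lowest chi-square per degree of freedom being 4.49.

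Alternatives chosen before the data were examined were the likelihood ratio test, DESeq2 1.42.0 (not for interactions), DESeq2 size factors, no filter, an adjusted p under 0.05, no mouse M4575, only the 2 genotypes compared, all regions of the model in a fit, each Nestin-Cre PFC HOM library left out, and the mouse as a block (WT regions within a model, and genotype by region). The likelihood ratio test used the trended dispersion alone, without a term for each gene's own spread. The block fit of genotype by region leaves out M4575, whose genotype label differs between regions. Chosen after seeing the data were DESeq2 without its filter (genotype only), fits without libraries whose choroid plexus sum was over 10 times the region median, without the STR library of M4564, without the SN library of M4566, without each PFC library (40 fits) and without each WT library (41 fits), and the mouse as a block for the model differences of WT regions.

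Named genes follow a rule set before the data were examined: the 10 members in every comparison; of the pathway lists, each gene that passed in a genotype comparison and, between regions, the largest rise and fall of each list among genes that passed; and for each member the 3 genes with the highest Pearson r of log2(cpm + 0.5) over 18 group means and over 121 libraries after group means were removed, among genes with a mean of at least 1 cpm. The members, pathway lists and marker lists were chosen with earlier results of these data known. The rule and the alternatives chosen in advance were therefore not blind to those earlier results. The marker lists reported cover striatal projection, cortical excitatory, cortical interneuron, dopamine and serotonergic neurons, choroid plexus, hippocampus, thalamus, hypothalamus, olfactory bulb, oligodendrocytes, astrocytes, endothelial and vascular cells, and immediate-early genes.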

Additional observations from a re-analysis of the deposited data

Results flagged for a closer look

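In 180 groups of libraries, 1 for each member in each group of model, region and genotype, the gap between the highest or lowest library and its nearest neighbour was compared with the range of the group. The gap was large in 13 groups, and chance gives about 1 in 20. High libraries were Htr1b in AAV-Cre PFC HOM M3607 (7.65 cpm) and Nestin-Cre PFC WT M4612 (5.10), Htr2c in AAV-Cre PFC HET M3676 (73.8), AAV-Cre SN HET M3676 (264) and AAV-Cre STR WT M3585 (128), and Htr3a in AAV-Cre PFC HET M3586 (11.1), AAV-Cre SN HOM M3570 (2.94) and Nestin-Cre SN HET M4566 (2.29). Htr4 in Nestin-Cre SN HOM M4575 (5.33) and Htr7 in Nestin-Cre STR HET M4564 (17.0) were high as well. Low libraries were Htr1a in AAV-Cre STR HET M3586 (2.92), Htr1f in AAV-Cre SN HET M3610 (0.440) and Htr3a in Nestin-Cre STR WT M4545 (1.27). The 3 high Htr2c libraries are among the 9 that were high in choroid plexus markers.

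A test of the difference between the models (AAV-Cre minus Nestin-Cre, log2) passed for 10 results. For genotype in PFC these were Htr2a in HET (0.64) and HOM (0.74), where 0.678% and 3.54% of all genes passed. For WT regions they were Htr1f (0.74), Htr2a (1.12) and Htr5a (0.55) in SN against PFC, Htr1a (0.57) and Htr1f (0.95) in SN against STR, and Htr2a (0.71), Htr5a (0.48) and Htr7 (0.57) in STR against PFC. Of all genes, 45%, 34% and 29.4% passed in these 3 tests of regions. Results of the same gene share WT libraries, so they are not independent of each other. Model, age and injection cannot be told apart in any of them, and no cause was tested.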

How the results depend on the processing

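Of 264 counts of members that passed, taken over all comparisons and the alternatives other than single libraries left out, 244 were within 1.5 times the reported count and 20 were not. With single libraries left out, 168 of 211 counts were and 43 were not. The likelihood ratio test gave 1 in AAV-Cre PFC HET, 1 in AAV-Cre PFC HOM, 1 in Nestin-Cre PFC HET and 3 in Nestin-Cre STR HET where 0 were reported. It also gave 1 for AAV-Cre HET and 1 for AAV-Cre HOM in SN against PFC, 2 for Nestin-Cre HET in SN against STR, 2 for Nestin-Cre HET in STR against PFC and 1 for the model difference of STR HET, where 0 were reported, and 5 for the model difference of SN against PFC (beside 37.3% of all genes), where 3 were. DESeq2 gave 1 in Nestin-Cre PFC HET and 1 in Nestin-Cre STR HET, and without its filter 0 in these and 1 in AAV-Cre PFC HOM, where with it no member had an adjusted p. Fitted together with the model's other regions, Nestin-Cre STR HET gave 3, beside 7.02% of all genes. At an adjusted p under 0.05 the model difference of PFC HET gave 0 and that of SN against STR 1, beside 0.102% and 25.7% of all genes. Without the libraries high in choroid plexus markers they gave 0 and 1 as well, beside 0.0882% and 27%, where 0.678% and 34% were reported. The cause was not tested.

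With the mouse as a block of the fit, the interaction of AAV-Cre HOM in SN against PFC gave 1 member, Htr2a, at −0.77 with an adjusted p of 0.0657, and Htr3a passed in Nestin-Cre SN against STR. In the model differences of WT regions the block gave 4 members for SN against PFC, 1 for SN against STR and 4 for STR against PFC, beside 46.4%, 37.2% and 30.6% of all genes. Htr1a no longer passed there, and Htr7 and Htr3a newly did. In the comparisons where the block was fitted, no other call changed.

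Of 2640 log2 differences of members under the same alternatives, 10 no longer passed, 29 newly passed, 0 that passed reversed, and 13 that did not pass moved by more than their standard error. The other 2588 kept their side of the threshold. Of 2110 with single libraries left out, 50 no longer passed, 17 newly passed, 1 moved and 0 reversed. When 1 library was left out at a time, the count of model differences ran from 0 to 1 for PFC HET, 0 to 1 for PFC HOM, 3 to 5 for SN against PFC, 1 to 2 for SN against STR and 2 to 3 for STR against PFC. The shares of all genes ran from 0% to 2.46%, 1.02% to 7.38%, 42.6% to 47.8%, 29.8% to 38.3% and 24.5% to 35.0%. In 23 of the 24 fits where Htr2a did not pass for PFC HET, the share was below the 0.678% reported.

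Genes with few counts, Htr3a, Htr4, Htr1f and Htr6 in particular, had wide standard errors, up to 0.83 for the model difference of Htr3a in SN HOM. A difference that did not pass is not shown to be absent. Htr1b, Htr2c, Htr2a and Htr6 were counted over part of their annotated exons. Bulk tissue does not separate cell types.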
